A study of Mus musculus with 6 samples.

Results

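Heat shock proteins and their DNAJ partners are the chaperones that fold new proteins, rescue damaged ones and carry others to membranes or to the degradation machinery. The genes described here are all those whose symbol marks them as HSP90, HSP70, HSP110, small heat shock, chaperonin, DNAJA, DNAJB or DNAJC genes, with pseudogenes left out. They were chosen by symbol alone and are 66 of the 22180 genes that had a probe set carrying a single gene symbol. RefSeq lists 72 protein-coding genes under these symbols. The other 6 (Dnaja1, Dnajb8, Dnajc17, Dnajc19, Hsp90ab1 and Hspb2) had no such probe set and were not analysed as members.

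The cells were Ly6D-negative common lymphoid progenitors, bone marrow cells upstream of the B, T and natural killer lineages, sorted by flow cytometry from mice aged 6 to 8 weeks. Control mice were OcnCre-;iDTR+/- and mutant mice OcnCre+;iDTR+/-, and both groups carried 1 copy of the inducible diphtheria toxin receptor and were injected with toxin daily for 4 weeks. Cre is driven by the osteocalcin promoter, so the receptor is meant to appear in osteocalcin-expressing bone cells and the sorted progenitors are not the targeted cells. The question was how loss of those cells alters progenitor transcripts, asked with 3 control and 3 mutant samples on 1 Affymetrix array each. The labels do not say whether samples were single mice or pools, so every p-value refers to the spread between these samples only. Values are log2 probe set intensities, and probe sets of different genes are not compared in level.

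HSP70 proteins bind exposed hydrophobic stretches of a client and release them in an ATP-driven cycle. DNAJ proteins, which carry a J domain, deliver clients and start the cycle, HSP110 proteins exchange the nucleotide, and HSP90 and the mitochondrial chaperonin take over later folding steps. Heat shock factor 1 raises the inducible members within minutes of heat, oxidative or handling stress by binding inverted repeats of a short unit, while unfolded protein in the endoplasmic reticulum raises a separate set there.

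Promoter sequences from RefSeq (build GRCm38.p6, 250 bases before to 50 bases after each annotated start) were listed for 54 of the 66 genes. They are shown because the widest ranges over the arrays among these genes were those of Hspa1a and Hspa1b, whose protein is the main stress-inducible HSP70. A pair of inverted heat shock units (GAANNTTC or TTCNNGAA, each its own reverse complement, so both strands are covered) occurred in the windows of 15 of the 54 genes, or 27.8%, against 17% of all 27025 genes with a window and 15.1% of all 32851 windows. A run of 3 alternating units (GAA, TTC and GAA, or TTC, GAA and TTC, with any 2 bases between units, the reverse complements of each other, which contain the shorter motif) occurred in 4 of the 54, or 7.41%, against 0.662% of all genes and 0.603% of windows. The 4 were Hsph1, Hspd1, Hspe1 and Dnajb6, of which Hspd1 and Hspe1 face away from each other across the same bases. Of the heat shock factor targets described below, Dnajb1 had no match in its windows, and Hsp90aa1 and Hspa8 had no window. A match describes letters and not a bound site, and the part of these elements in the ranges over the arrays was not tested. The stretches of 30 bases around the longest run of units read as follows, 5′ to 3′ on the gene's strand, with the joined units in capitals.
Hspa1a (chr17:34972242-34972271, minus strand): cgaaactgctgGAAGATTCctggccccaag
Hspa1b (chr17:34959324-34959353, minus strand): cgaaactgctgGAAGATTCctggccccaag
Hsph1 (chr5:149636280-149636309, minus strand): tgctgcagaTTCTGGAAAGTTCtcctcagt
Hspd1 (chr1:55088053-55088082, minus strand): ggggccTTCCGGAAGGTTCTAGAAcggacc
Hspe1 (chr1:55088053-55088082, plus strand): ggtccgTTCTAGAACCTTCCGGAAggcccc
Dnajb6 (chr5:29735843-29735872, plus strand): cagctccgaGAATCTTCCGGAAcgctagac
Hspb1 (chr5:135887791-135887820, plus strand): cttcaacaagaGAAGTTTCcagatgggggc
The Hspd1 and Hspe1 lines are the same 30 bases read from opposite strands and hold 4 joined units. The Hsph1 run of 3 lies just after an annotated start, and the units of the other genes lie before one. Hspa1a and Hspa1b share their element, which begins 104 bases before the start in both, and their 250 upstream bases were the same at 247 positions (98.8%). The upstream stretch of Hspa1b, the chaperone gene with the widest range over the 6 arrays, is given whole (chr17:34959239-34959488, minus strand), with the unit pair in capitals.
Hspa1b: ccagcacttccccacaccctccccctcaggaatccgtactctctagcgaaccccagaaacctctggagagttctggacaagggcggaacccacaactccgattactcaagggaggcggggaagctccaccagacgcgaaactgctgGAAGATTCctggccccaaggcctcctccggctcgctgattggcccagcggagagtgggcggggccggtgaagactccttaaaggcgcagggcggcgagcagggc

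One array stood apart: over all probe sets, the correlation of mutant replicate 2 with the rest was 0.935 to 0.954, against 0.973 to 0.989 among the rest, and results are given with and without it where it matters. In the upper 50% of tested genes by mean intensity, the median difference from the control mean was 0.01, −0.28 and −0.16 in mutant replicates 1, 2 and 3, and −0.02 to 0.01 on the control arrays. Of the tested chaperone genes 38 lie in that upper 50%. The progenitor markers Il7r (9.72 to 10.35 over the arrays), Dntt (10.61 to 11.04) and Rag2 (8.24 to 8.87) were far above the intensity under which genes were not tested (4.84). Flt3 (6.62 to 7.36) and Kit (6.96 to 7.41) were above it by less. All 5 had a lower mutant mean (57.5% of all tested genes did), with a median of −0.20. The groups did not overlap for 3 of them, Il7r, Dntt and Rag2 (9.99% of all tested genes, in that direction). The 2 erythroid and 5 megakaryocyte markers with a value had higher mutant means, with medians of 0.30 and 0.21. Whether the groups differed in cell mix was not tested. Of the B cell markers, Ighm (11.30 to 11.62), Cd79a (10.02 to 10.73) and Cd22 (7.17 to 7.73) were also above it, and Ms4a1 (3.92 to 4.23) was not. The tissue label names stromal cells, and 4 of 5 osteoblast and stromal markers were also above that limit, from Bglap (5.04 to 5.50) to Alpl (7.82 to 8.29), while Lepr (3.09 to 3.35) was not. Of the markers excluded by the sort, Ly6d reached 8.25 in controls and 7.57 in mutants, and Thy1 reached 7.31 and 6.94. The granule genes S100a8 and Mpo had 11.32 to 12.09 and 9.48 to 11.45. The method leaves no detection call, so whether a low value is signal cannot be said.

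No chaperone gene passed an adjusted p of 0.05 between the genotypes. The members leaned lower in the mutants by a small amount. This lean was not seen without mutant replicate 2, and it shrank when trends with brightness were removed. Of the 66 genes 55 were bright enough to be tested with limma across 13308 genes, and 0 passed, as did 0 of all genes tested (0%). At an unadjusted p under 0.05 there were 3 members in limma and 1 in an unmoderated test, out of 1068 and 879 genes. With arrays weighted by their fit, which gave mutant replicate 3 most of the weight, limma called 8 of the 55 members (14.5%) and 2960 of all 13308 genes (22.2%). Of the 8, Dnaja2, Dnaja3, Dnajb13, Dnajc5, Dnajc7, Dnajc12 and Dnajc14 were lower in mutants and Dnajc2 was higher. The 3 were Dnajc7 and Hspa4l, lower in mutants (6.02% of all tested genes), and Dnajc27, higher in mutants (2.01%). A lower mutant mean was found for 40 of the 55 tested members, or 72.7%, against 57.5% of all tested genes, with a median difference of −0.16 against −0.04. Over all 66, 45 had a lower mean, and the median was −0.13 against 0.03 over all 22180 genes. Without mutant replicate 2, 28 of 55 were lower (50.9%, against 54.1% of all tested genes) and the median was 0.00. After cyclic loess, which removes trends with brightness between arrays, 32 were lower (58.2%, against 49.8%) with a median of −0.04. The per-array median over the tested members was 0.01, −0.03 and 0.05 in the controls and 0.05, −0.30 and −0.07 in the mutants, so mutant replicate 1 was at the level of the controls.

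**Figure D1:**
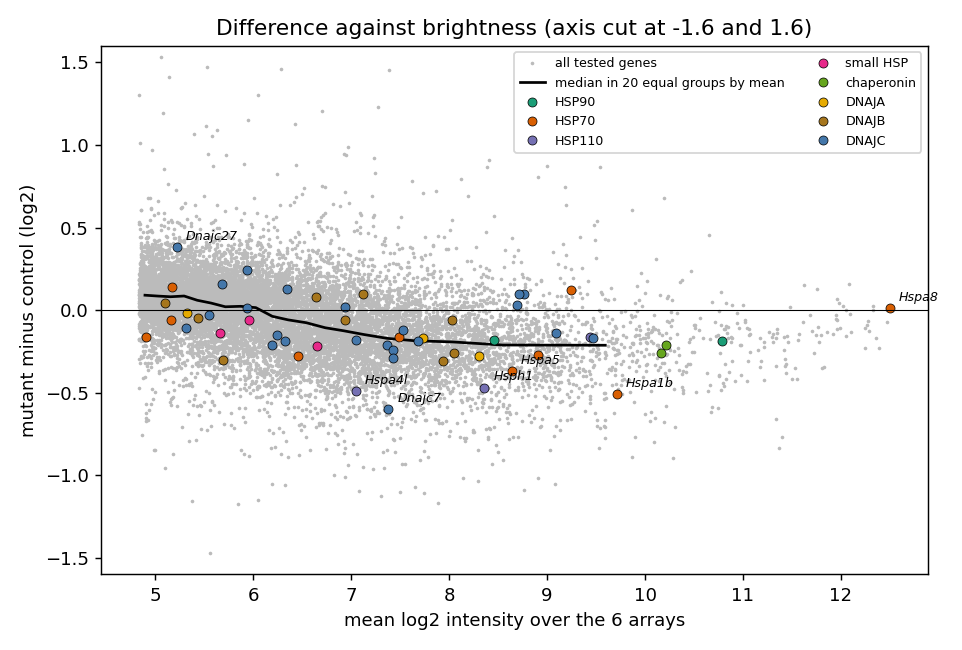
Mutant minus control difference (log2) of each tested gene against its mean log2 intensity over the 6 arrays. Grey points are all 13308 tested genes, the black line is their running median by mean, and coloured points are the 55 tested chaperone genes by family. The line falls below 0 for brighter genes, and most chaperone points lie within the grey cloud, with Dnajc7 (−0.60) and Dnajc27 (0.38) as the lowest and highest of them.

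Mutant replicate 2 was the lowest of the 6 arrays for 33 of the 55 tested members (60%, against 35.9% of all tested genes). The values of the groups did not overlap for 5 tested members that were lower in mutants (9.09%, against 9.99% of all tested genes) and for 3 that were higher (5.45%, against 5.4%). Both shares are near those of all genes. The 5 were Hsp90b1, Hspa12a, Hspa4l, Dnajc5 and Dnajc7, and the 3 were Hspa9, Dnajc6 and Dnajc27.

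**Figure D2:**
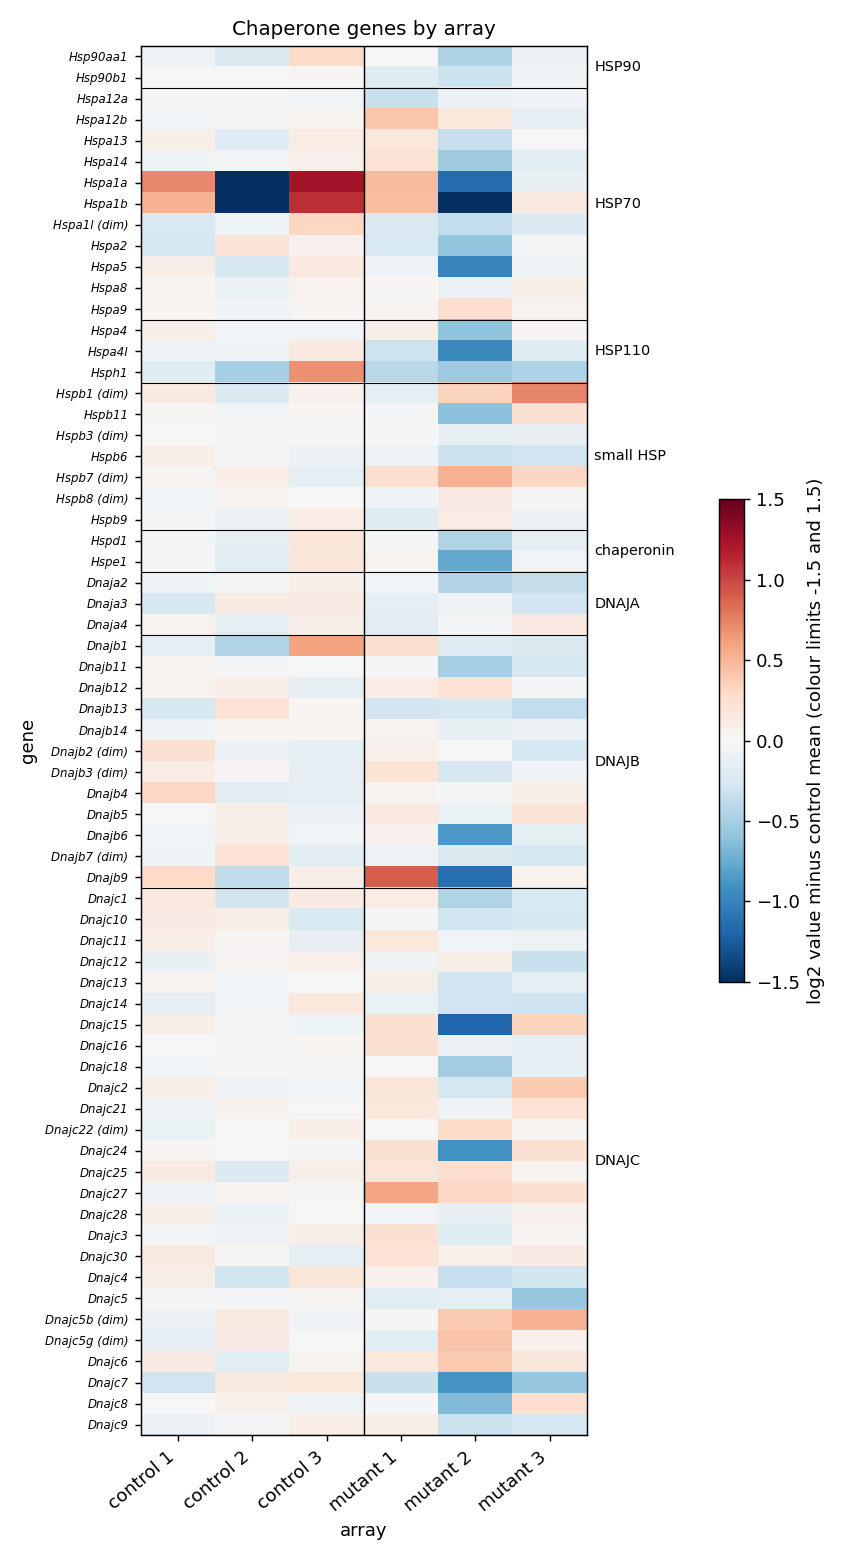
Deviation from the control mean (log2) for all 66 chaperone genes (rows, by family) on the 6 arrays (columns), with colours limited at −1.5 and 1.5. The 11 genes marked dim were not tested. Control replicate 2 and mutant replicate 2 are both deep blue for Hspa1a and Hspa1b, and mutant replicate 2 is blue over much of the column.

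The inducible HSP70 genes were the most variable chaperone genes, and they varied inside each group rather than between them. Hspa1a, which encodes the major stress-inducible cytosolic HSP70, was at 9.77, 7.08 and 10.29 in the controls (replicates 1, 2 and 3, in that order throughout) and at 9.52, 7.89 and 8.93 in the mutants. Its neighbour and near-copy Hspa1b was at 10.49, 8.34 and 11.07 in the controls and 10.43, 7.84 and 10.11 in the mutants. Replicate 2 was the lowest array of each group for both genes, and the groups overlapped. Over the 6 arrays Hspa1a ranged over 3.22 and Hspa1b over 3.23 on the log2 scale, or spans of 9.31-fold and 9.37-fold. Within the controls alone, the range of Hspa1a was the second largest and that of Hspa1b the fifth largest of all 13308 tested genes, against a median range of 0.22. The other 3 in the first 5 were the sex-linked genes Xist and Eif2s3y and the chemokine gene Ccl3. Xist ranged over 4.47 and Eif2s3y over 2.97 within the controls. The control samples thus differed in sex-linked transcripts. How sex was distributed over the samples and the genotypes was not tested, and the comparison of the genotypes was not adjusted for sex. The mutant minus control difference was −0.27 ± 0.79 (SE; adjusted p = 0.902 in limma) for Hspa1a and −0.51 ± 0.83 (adjusted p = 0.819) for Hspa1b. Without control replicate 2 these were −1.25 and −1.32, without control replicate 3 they were 0.36 and 0.04, and without mutant replicate 2 they were 0.18 and 0.30. Without control replicate 1 they were 0.10 and −0.24, without mutant replicate 1 −0.63 and −0.99, and Hspa1b was −0.83 without mutant replicate 3, so the sign rests on single arrays. The coding sequences are nearly identical, and how far each probe set reads the other gene was not tested.

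Other targets of heat shock factor followed part of that order. Hsph1, an HSP110 nucleotide exchange factor, was at 8.42, 8.10 and 9.28 in controls and at 8.18, 8.06 and 8.14 in mutants. Its difference of −0.47 ± 0.27 (adjusted p = 0.599 in limma) was −0.13 without control replicate 3, the high array, and −0.72 without control replicate 2. Dnajb1, the J protein that works with inducible HSP70, was at 6.82, 6.52 and 7.57 in controls and 7.21, 6.78 and 6.75 in mutants, a difference of −0.06 ± 0.27 that ran from −0.28 without control replicate 2 to 0.24 without control replicate 3 and was 0.06 after cyclic loess. Control replicate 3 was the highest and control replicate 2 the lowest control array for Hspa1a, Hspa1b, Hsph1, Dnajb1, Hsp90aa1, Hspd1, Hspe1 and Hspa8. Hspb1 was instead highest in control replicate 1, and the 2 dimmer probe sets of Hspa8 were lowest there among the controls. In the list of 11 such targets, 9 had a value and 7 of those a lower mutant mean, with a median of −0.21 that was 0.02 after cyclic loess, 0.01 without mutant replicate 2 and 0.04 without control replicate 3. The per-array median was −0.02, −0.21 and 0.29 in controls and 0.03, −0.46 and −0.09 in mutants. The ninth, Hspb1, a small heat shock protein gene, was too dim to be tested (4.14 to 4.49 in controls, 4.22 to 5.08 in mutants).

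**Figure D3:**
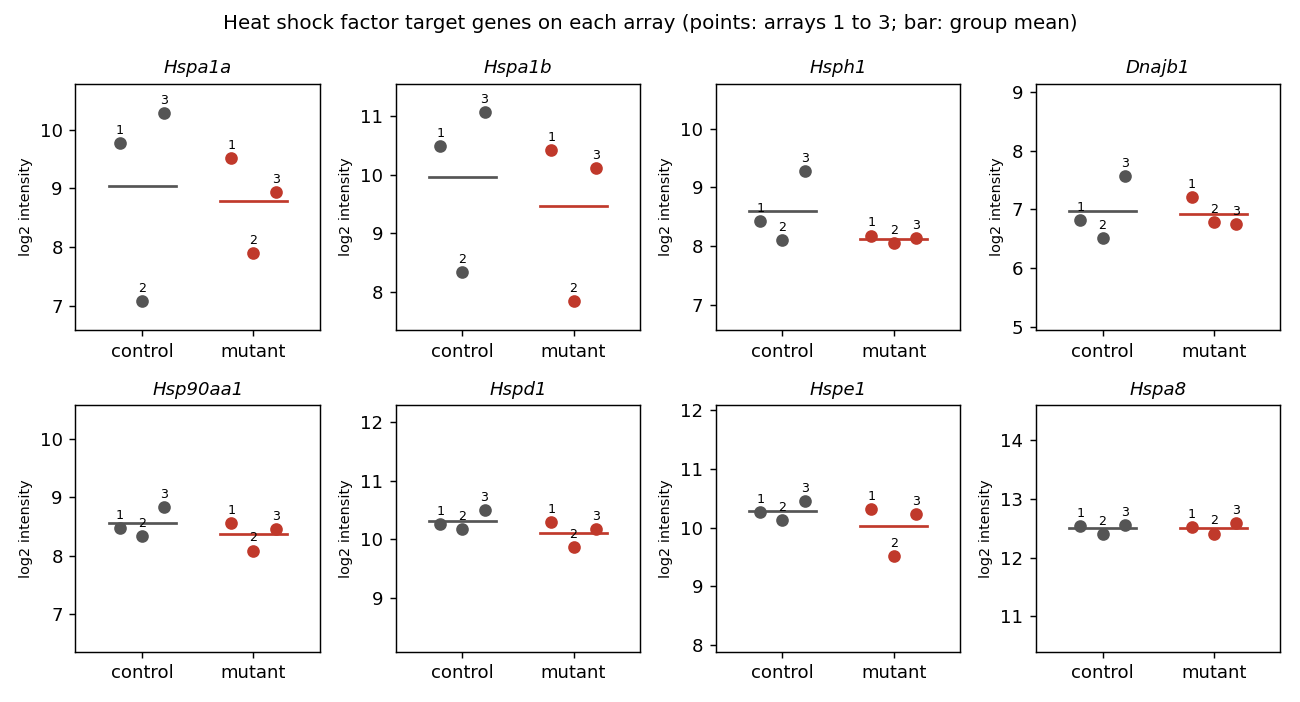
Log2 intensity of 8 heat shock factor targets on each array, with a vertical axis of equal span in every panel. Points are arrays numbered by replicate, and bars are group means. Hspa1a and Hspa1b span over 3 log2 units with replicate 2 lowest in both groups, Hsph1 and Dnajb1 have 1 high control array, and Hspa8 lies between 12.40 and 12.59.

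The median over genes of immediate early response, which also react to cell handling, was lowest in replicate 2 of each group. It was 0.35, −0.58 and 0.11 over the controls against 0.85, −0.03 and 0.30 over the mutants. Some of the genes departed from this. Egr3 was highest in control replicate 2, Junb was lowest in control replicate 3, and Ier5 and Btg2 were lowest in control replicate 1. Among the mutants, Jund, Ier5 and Btg2 were lowest in replicate 3. Fos, for example, was at 7.43, 5.86 and 6.46 in controls and 8.06, 6.58 and 7.26 in mutants. Replicate 2 was thus lowest in each group for Fos as for Hspa1a, but control replicate 1 was highest for Fos and control replicate 3 for Hspa1a. Over the list, 15 of 18 had a higher mutant mean (57.5% of all tested genes had a lower one), with a median of 0.37. The median was 0.10 without control replicate 2, 0.15 without mutant replicate 1 and 0.57 without mutant replicate 2. In limma 0 of them passed, with 2 at an unadjusted p under 0.05 and higher in mutants (2.01% of all tested genes, in that direction). The lowest p were those of Egr3 (0.35 ± 0.13, SE), Junb (0.44 ± 0.18) and Egr2 (0.39 ± 0.18), each at adjusted p = 0.594 in limma. The Junb difference dropped to 0.27, and the Egr2 difference to 0.25, when mutant replicate 1 was left out. In 7 myeloid markers the median was 0.20, −0.06 and −0.14 in controls and 0.44, −0.32 and 0.11 in mutants. Elane, with the largest difference of that list, was at 10.34, 8.05 and 8.94 against 10.56, 9.49 and 9.89. Lyz2 (10.14, 10.57 and 10.40 against 10.72, 9.79 and 9.88) and Ly6g (5.85, 5.94 and 5.16 against 6.47, 5.02 and 5.76) were instead highest among controls in replicate 2. All 7 myeloid markers were above the limit for testing, and 5 of them had a higher mutant mean. The part of these genes in the spread of Hspa1a and Hspa1b was not tested.

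The constitutive HSP70 genes were steadier. Hspa8, the abundant cytosolic HSP70 of unstressed cells, was at 12.54, 12.40 and 12.55 in controls and 12.52, 12.41 and 12.59 in mutants. It differed by 0.01 ± 0.11, and its 2 dimmer probe sets gave −0.12 and −0.06. The difference was 0.26 after cyclic loess and −0.05 with arrays centred on their medians, and −0.03 to 0.06 on leaving out 1 array. The mitochondrial HSP70 gene Hspa9 was at 9.21, 9.13 and 9.21 in controls and 9.22, 9.43 and 9.24 in mutants. It was higher in all mutants, by 0.12 ± 0.11 (adjusted p = 0.696 in limma), by 0.05 without mutant replicate 2 and by 0.34 after cyclic loess. Hspa2, best known from the testis, was at 6.34, 6.80 and 6.67 against 6.37, 6.01 and 6.57, and differed by −0.28 ± 0.18 (−0.13 without mutant replicate 2 and −0.18 without control replicate 2). Hspa12a, a distant HSP70 relative, averaged 4.99 ± 0.04 over controls against 4.83 ± 0.15 over mutants (SD, n = 3 each), just above the limit for testing, and differed by −0.08 without mutant replicate 1. The remaining HSP70 genes were Hspa12b, Hspa13, Hspa14 and the dim Hspa1l, with differences of 0.14, −0.06, −0.16 and −0.27. The mutant mean was the lower for 8 of the 11 HSP70 genes, and their median of −0.16 became 0.05, −0.01 and −0.29 when mutant replicate 2, control replicate 3 and mutant replicate 1 were left out in turn.

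HSP110 genes had the lowest family median, −0.47 over 3 genes. Hspa4l was at 7.21, 7.24 and 7.42 in controls and 6.98, 6.32 and 7.11 in mutants, so that all mutants lay below all controls. Its difference was −0.49 ± 0.21 (adjusted p = 0.594 in limma) and −0.24 without mutant replicate 2. It is given because of its unadjusted p (0.0482) and was chosen after its values were seen. Hspa4, a widely expressed exchange factor, averaged 9.52 ± 0.08 in controls against 9.36 ± 0.38 in mutants (SD, n = 3). The per-array family median was −0.08, −0.05 and 0.13 in controls and −0.31, −0.60 and −0.18 in mutants. It was −0.27 overall after cyclic loess, −0.18 without control replicate 3 and −0.24 without mutant replicate 2.

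HSP90 binds late folding intermediates such as kinases and steroid receptors. Hsp90aa1, its inducible cytosolic form, was at 8.48, 8.34 and 8.84 in controls and 8.56, 8.09 and 8.46 in mutants (−0.18 ± 0.18, SE). On leaving out 1 array that difference was −0.05 (mutant replicate 2), −0.04 (control replicate 3), −0.29 (control replicate 2) or −0.28 (mutant replicate 1). Hsp90b1, the form of the endoplasmic reticulum, was at 10.88, 10.88 and 10.90 against 10.70, 10.56 and 10.82 and had no overlap between groups. Its difference was −0.19 ± 0.12 (adjusted p = 0.604 in limma), and −0.12 without mutant replicate 2. The direction of both turned after cyclic loess, to 0.02 and 0.05. The chaperonin pair Hspd1 and Hspe1, which form the folding chamber of mitochondria and its lid, share the promoter shown above. Hspd1 was at 10.27, 10.18 and 10.50 against 10.30, 9.87 and 10.17, and Hspe1 at 10.26, 10.13 and 10.46 against 10.32, 9.51 and 10.24. Arrays had the same order in both genes within each group. Their differences were −0.21 ± 0.15 and −0.26 ± 0.22 (SE), −0.08 and 0.00 without mutant replicate 2, and −0.12 and −0.17 without control replicate 3. Hspe1 was at −0.41 without mutant replicate 1. After cyclic loess they were 0.03 and −0.02.

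Of 10 genes of the endoplasmic reticulum 8 had a lower mutant mean (median −0.13, and −0.04 both after cyclic loess and without mutant replicate 2). The stress element of this compartment (CCAAT, any 9 bases, then CCACG, searched on both strands) was found in the windows of 3 of the 54 genes, Hspa5, Hsp90b1 and Dnajc3, or 5.56%, against 0.137% of all genes with a window and 0.119% of windows. The upstream stretches of Hspa5 (chr2:34771840-34772089, plus strand) and Hsp90b1 (chr10:86705445-86705694, minus strand) show it in capitals, once in Hspa5 and in both orientations in Hsp90b1. These stretches are given as examples of the element.
Hspa5: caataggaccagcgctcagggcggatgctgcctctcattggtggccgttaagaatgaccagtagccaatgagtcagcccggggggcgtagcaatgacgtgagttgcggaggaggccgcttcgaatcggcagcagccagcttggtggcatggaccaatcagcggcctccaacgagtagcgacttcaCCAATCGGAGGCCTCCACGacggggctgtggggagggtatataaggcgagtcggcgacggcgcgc
Hsp90b1: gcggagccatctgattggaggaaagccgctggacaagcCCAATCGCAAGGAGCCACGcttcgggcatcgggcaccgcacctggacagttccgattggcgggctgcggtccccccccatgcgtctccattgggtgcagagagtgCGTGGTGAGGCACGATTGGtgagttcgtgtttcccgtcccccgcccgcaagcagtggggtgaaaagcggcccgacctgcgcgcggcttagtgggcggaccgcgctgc
Hspa5, the HSP70 of this compartment, was at 8.91, 8.58 and 8.97 in controls and 8.77, 7.84 and 8.75 in mutants, a difference of −0.37 ± 0.26 (adjusted p = 0.62 in limma) that was −0.06 without mutant replicate 2, −0.16 after cyclic loess and −0.10 with array weights. Dnajc3, a J protein that also restrains the kinase PERK, was at 8.66, 8.60 and 8.77 against 8.91, 8.50 and 8.72 and differed by 0.03 ± 0.14. Dnajb9, a J partner of Hspa5, was at 8.35, 7.68 and 8.14 in controls and 8.97, 6.92 and 8.11 in mutants. Its range of 2.05 lay between mutant replicates 1 and 2, and its difference of −0.06 ± 0.46 was 0.48 without mutant replicate 2, −0.54 without mutant replicate 1, −0.24 without control replicate 2 and 0.09 without control replicate 1, and 0.13 after cyclic loess. Dnajb11, which helps fold secreted proteins including antibody chains, was at 8.18 ± 0.04 and 7.92 ± 0.24 (SD, n = 3 each; −0.26 ± 0.14, SE), and differed by −0.14 without mutant replicate 2 and −0.07 after cyclic loess. Dnajb12, a membrane J protein, differed by 0.10, Dnajc1 by −0.19, Dnajc10, which also reduces disulfides, by −0.19, and Dnajb14 by −0.05.

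**Figure D4:**
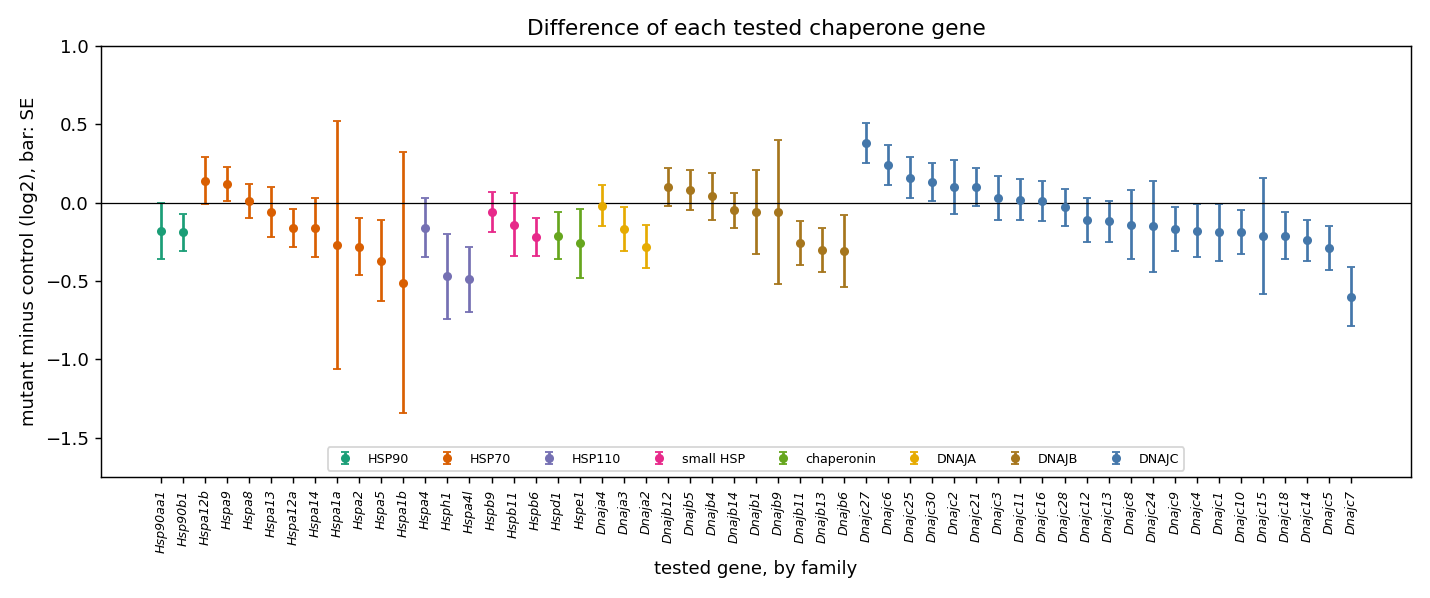
Mutant minus control difference (log2) of the 55 tested chaperone genes, grouped and coloured by family, with limma standard errors as bars. The widest bars belong to Hspa1a (0.79) and Hspa1b (0.83), and the lowest and highest points are Dnajc7 and Dnajc27.

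DNAJA and DNAJB genes encode the general J proteins. Dnaja2 was at 8.38, 8.42 and 8.54 in controls and 8.40, 8.01 and 8.09 in mutants and differed by −0.28 ± 0.14 (adjusted p = 0.594 in limma), with −0.40 to −0.20 on leaving out 1 array and −0.08 after cyclic loess. Dnaja3, of mitochondria, differed by −0.17 ± 0.14 (−0.29 without control replicate 1 and −0.11 without control replicate 3 or mutant replicate 3) and Dnaja4 by −0.02 ± 0.13 (−0.10 to 0.06 on leaving out 1 array). Dnajb6, a suppressor of protein aggregation whose window holds a run of 3 units, was at 8.05, 8.19 and 8.05 against 8.16, 7.23 and 7.96. Only mutant replicate 2 stood apart, and the difference of −0.31 ± 0.23 was −0.03 without it, −0.50 without mutant replicate 1 and −0.13 after cyclic loess. Dnajb13, a gene of sperm and cilia, was at 5.59, 6.05 and 5.86 against 5.55, 5.59 and 5.47 (−0.30 ± 0.14, and −0.19 without control replicate 2). Of the other DNAJB genes, Dnajb4 and Dnajb5 differed by 0.04 and 0.08, and Dnajb2, Dnajb3 and Dnajb7 were too dim to be tested. The mutant mean was the lower for 9 of the 12 DNAJB genes, and their median of −0.06 moved to 0.00 when mutant replicate 2 was left out and to −0.18 when mutant replicate 1 was.

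DNAJC genes encode specialised J proteins, and the 26 measured were divided in direction, 14 lower and 12 higher, with a median of −0.07 (0.01 after cyclic loess, 0.03 without mutant replicate 2 and −0.11 without mutant replicate 1). Dnajc7, which hands clients between HSP70 and HSP90, was at 7.38, 7.81 and 7.84 in controls and 7.34, 6.79 and 7.11 in mutants. All mutants lay below all controls, although control replicate 1 (7.38) and mutant replicate 1 (7.34) were close. Its difference, −0.60 ± 0.19 (a 1.51-fold lower mean; adjusted p = 0.594 in limma), was the lowest of the 55 and ran from −0.74 to −0.45 on leaving out 1 array, with −0.45 after cyclic loess. A dimmer Dnajc7 probe set, shared with Nkiras2 and left out of the test, differed by 0.15 in the opposite direction. Dnajc27, whose protein pairs a J domain with a small GTPase domain, was at 4.97, 5.08 and 5.05 in controls and 5.63, 5.34 and 5.26 in mutants. It was the highest of the 55 at 0.38 ± 0.13 (adjusted p = 0.594), with 0.27 to 0.45 on leaving out 1 array and 0.31 after cyclic loess, and it was dim. Dnajc5, a chaperone of secretory vesicles, was at 7.54, 7.56 and 7.62 against 7.41, 7.43 and 7.01 (−0.29 ± 0.14; −0.15 without mutant replicate 3 and −0.14 after cyclic loess). Dnajc14 differed by −0.24 ± 0.13 (−0.08 after cyclic loess), Dnajc18 by −0.21 ± 0.15 (−0.06 without mutant replicate 2 and −0.32 without mutant replicate 1) and Dnajc6, the clathrin-uncoating factor auxilin, by 0.24 ± 0.13 (0.15 without control replicate 2).

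Some DNAJC genes were low on mutant replicate 2 alone. Dnajc15, of the inner mitochondrial membrane, was at 7.56, 7.45 and 7.41 in controls and 7.70, 6.28 and 7.81 in mutants, and its difference of −0.21 ± 0.37 became 0.28 without that array, −0.43 without mutant replicate 1 and −0.48 without mutant replicate 3. It was chosen after its values were seen. Dnajc24, which takes part in making diphthamide, the modified residue that diphtheria toxin attacks, was at 6.34, 6.32 and 6.29 against 6.54, 5.41 and 6.54. Its difference was −0.15 ± 0.29 (adjusted p = 0.843 in limma), 0.23 without mutant replicate 2, and −0.34 without mutant replicate 1 or 3. Dnajc8, a spliceosome protein, was at 9.16, 9.24 and 9.09 against 9.15, 8.50 and 9.41. Dnajc9, a histone chaperone, was at 9.56 ± 0.10 and 9.39 ± 0.22 (SD, n = 3 each), and Dnajc2 and Dnajc21, which act at the ribosome and in its assembly, differed by 0.10 each. The remaining tested DNAJC genes were Dnajc4, Dnajc11, Dnajc12, Dnajc13, Dnajc16, Dnajc25, Dnajc28 and Dnajc30, with differences from −0.18 for Dnajc4 to 0.16 for Dnajc25. Dnajc5b, Dnajc5g and Dnajc22 were too dim to be tested.

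Among 7 small heat shock protein genes, which hold unfolding proteins in an aggregation-proof state, only Hspb6, Hspb9 and Hspb11 were tested. Hspb6 was at 6.86, 6.75 and 6.68 in controls and 6.69, 6.44 and 6.48 in mutants (−0.22 ± 0.12; adjusted p = 0.596 in limma; −0.14 after cyclic loess). Hspb9 differed by −0.06 ± 0.13 (−0.14 to 0.01 on leaving out 1 array, with −0.14 without mutant replicate 2 and 0.01 without mutant replicate 1). Hspb11, named in this family although its protein belongs to the transport machinery of cilia, differed by −0.14 ± 0.20, by 0.10 without mutant replicate 2 and by −0.32 without mutant replicate 3. The dim Hspb3, Hspb7 and Hspb8 were at 4.74, 4.38 and 4.51 in controls and 4.65, 4.73 and 4.55 in mutants on average. The 7 mitochondrial genes with a value, from several of these families, had a median of −0.17, with 4 lower and 3 higher, which became 0.03 after cyclic loess and 0.04 without mutant replicate 2.

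Genes that work with these chaperones but lie outside the families leaned the same way on mutant replicates 2 and 3. Of 36 co-chaperone and regulator genes tested, 32 had a lower mutant mean (57.5% of all tested genes did), with a median of −0.15. In limma 5 of them had an unadjusted p under 0.05 (6.02% of all tested genes, in that direction), and 0 passed the threshold. Cdc37, which brings kinases to HSP90, was at 7.95, 8.10 and 8.16 in controls and 7.94, 7.39 and 7.38 in mutants (−0.50 ± 0.17, SE; adjusted p = 0.594 in limma). Its relative Cdc37l1 was at 7.14, 7.43 and 7.31 against 7.13, 6.13 and 6.64 (−0.66 ± 0.24; −0.41 without mutant replicate 2). Hsf2, a heat shock factor gene, was at 6.42, 6.06 and 6.21 against 5.94, 5.67 and 5.94 (−0.38 ± 0.14). Of 13 genes of TRiC and prefoldin, the cytosolic chaperonin and the complex that feeds it actin and tubulin, 11 had a lower mutant mean (median −0.32). They included Vbp1 (−0.74 ± 0.23), Cct8 (−0.53 ± 0.24; −0.27 without mutant replicate 2) and Pfdn6 (−0.44 ± 0.21; −0.29 without mutant replicate 2 and −0.70 without mutant replicate 1). The per-array median of that list was 0.01, −0.03 and 0.00 in controls and 0.04, −0.73 and −0.34 in mutants, and the co-chaperone list had −0.03, −0.05 and 0.03 against −0.01, −0.33 and −0.23. Bright genes in general were also lower on mutant replicates 2 and 3. The medians there were −0.28 and −0.16 for the upper 50% of tested genes by mean intensity, and −0.42 and −0.18 for the brightest 10%. After cyclic loess the medians over the genes were −0.11 for TRiC and prefoldin and −0.02 for the co-chaperones. Without mutant replicate 2 they were −0.12 and −0.13, and without mutant replicate 1 they were −0.46 and −0.24.

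**Figure D5:**
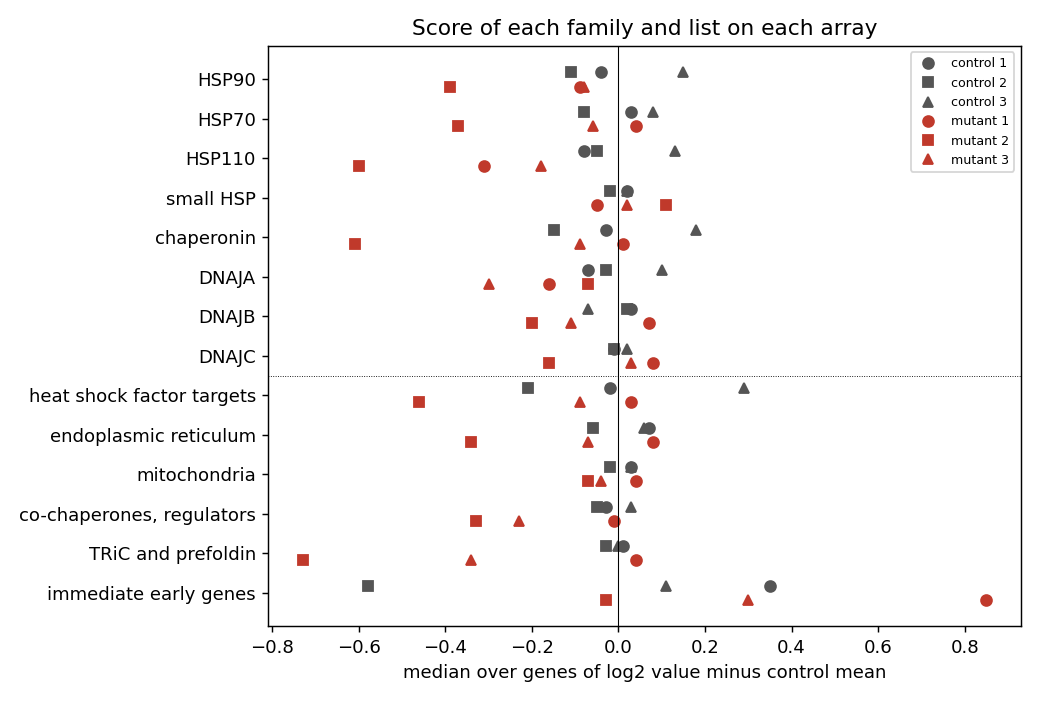
Per-array median over the genes of each family or list of the deviation (log2) from the control mean. Symbols mark replicates 1, 2 and 3, grey for control and red for mutant. Mutant replicate 2 (red square) is the lowest array for HSP90, HSP70, HSP110, the chaperonin pair, DNAJB and DNAJC but not for DNAJA or the small heat shock proteins, and immediate early genes spread from −0.58 to 0.85.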

How the data were processed

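The authors deposited log2 probe set intensities of 6 Affymetrix arrays. Per the labels' protocols, Trizol-extracted RNA of the sorted cells was turned into cDNA, amplified by NuGEN Ovation V2 chemistry and biotin-labelled. Per the submitters' processing notes the values were made with RMA, which corrects background, equalises the arrays' distributions and summarises probes. No version of it is given in the sources used here. RMA can shrink differences of dim genes and gives no detection call, and the number of arrays limits the precision.

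Of 41345 probe sets, 23521 carried 1 gene symbol in the platform annotation table, 1814 carried several and 16010 none. Of the first, 23328 matched a RefSeq gene identifier (assembly GRCm38.p6). Where a gene had several, the one brightest on average was used, and the dimmest 40% of genes (mean under 4.84) were left untested. Groups follow the labelled genotype. The genotypes were compared with limma 3.58.1 (R 4.3.3; lmFit, then eBayes; 2-sided; Benjamini-Hochberg over 13308 genes; threshold 0.05), and errors of differences are its standard errors. The script was tested on simulated data. Figures were drawn with matplotlib 3.10.9.

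Named genes were 17 fixed members, the lowest p per family (3 each, 6 for DNAJC, none for HSP90, HSP110 and the chaperonin), the highest and lowest difference, and the 3 lowest p per outside list. Hspa4l, Dnajc15 and the members given to complete a family were added. The members and lists were chosen with earlier results of these data known. Lists are described by counts and medians and were not tested. Alternatives were a stricter filter on dim genes (60%) or none, averaging a gene's probe sets or testing each alone, trended and robust variance, an unmoderated test, array weights, repeated quantile normalization, cyclic loess, median centring of arrays, a replicate block, and leaving out each array.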

Additional observations from a re-analysis of the deposited data

How the results depend on the processing

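In limma, array weights called 2960 genes and 8 chaperone members, against 0 and 0 in the report, and the cause was not tested. Leaving out 1 array called 0 to 4 genes, 4 without mutant replicate 1 and 1 without mutant replicate 2, and 0 members each time. Fitting the replicate number as a block called 0 genes and 0 members. Deviations of same-numbered arrays correlated at 0.13, 0.20 and −0.13, and those of differently numbered arrays at −0.23 to 0.20. With 3 arrays per group, these values cannot tell whether the numbers pair the samples. Of 41 named tested genes, 27 kept their direction wherever they were tested, of which 24 were tested in all 17 alternatives and 3 (Hspa12a, Dnajb13 and Dnajc27) were too dim for the stricter filter. Hspe1, among the 27, was at 0.00 without mutant replicate 2. Of the 41, 32 moved by over 1.5 times or turned on leaving out an array (23 without mutant replicate 2, 16 without mutant replicate 1). Under array weights 14 passed, as did 22.2% of all tested genes. Many of the 41 were named for a low p in these same data, so these counts are not compared with those of all genes. Outside array weights their lowest adjusted p (limma, Benjamini-Hochberg) was 0.0886.

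A difference moved by over 1.5 times, turned or reached 0.00 for 25 of the 41 genes under cyclic loess, 23 under repeated quantile normalization, 22 under array weights and 6 under centring, and so did 12, 12, 12 and 4 of 16 medians. Medians that moved by more than the spread between replicates were, under array weights, HSP110 −0.24, small heat shock proteins 0.01, DNAJA −0.33, DNAJC 0.02 and mitochondrial genes −0.03. Repeated quantile normalization gave HSP90 0.01, HSP110 −0.30, mitochondrial genes 0.00 and co-chaperones −0.03. Cyclic loess gave HSP90 0.04, HSP110 −0.27, mitochondrial genes 0.03 and co-chaperones −0.02. Centring gave small heat shock proteins −0.12 and mitochondrial genes −0.24. Others moved by over 1.5 times but by less than that spread. Under cyclic loess these were chaperonin 0.00, DNAJA −0.08, DNAJC 0.01, heat shock factor targets 0.02, endoplasmic reticulum −0.04, TRiC and prefoldin −0.11, tested members −0.04 and all members −0.04. Quantile normalization gave chaperonin −0.05, DNAJA −0.07, DNAJC 0.02, heat shock factor targets −0.04, endoplasmic reticulum −0.05, TRiC and prefoldin −0.14, tested members −0.04 and all members −0.05. Array weights gave HSP70 −0.07, HSP90 −0.11, chaperonin −0.12, DNAJB −0.12, heat shock factor targets −0.08, tested members −0.09 and all members −0.08, and centring gave DNAJB −0.12, DNAJC −0.14 and all members −0.20.

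On leaving out 1 array, medians ran from −0.22 to 0.00 (tested members), −0.20 to −0.01 (all members), −0.24 to −0.09 (HSP90), −0.29 to 0.05 (HSP70), −0.53 to −0.18 (HSP110), −0.10 to 0.01 (small heat shock proteins), −0.35 to −0.04 (chaperonin), −0.29 to −0.11 (DNAJA), −0.18 to 0.00 (DNAJB) and −0.11 to 0.03 (DNAJC). For the lists they ran from −0.30 to 0.04 (heat shock factor targets), −0.23 to −0.04 (endoplasmic reticulum), −0.18 to 0.04 (mitochondrial), −0.24 to −0.12 (co-chaperones), −0.46 to −0.12 (TRiC and prefoldin) and 0.10 to 0.57 (immediate early). The number of tested members with a lower mutant mean ran from 28 to 44.

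Single genes that turned were, under cyclic loess, Hsp90aa1 0.02, Hsp90b1 0.05, Hspd1 0.03, Dnajb1 0.06 and Dnajb9 0.13. Under quantile normalization they were Hsp90b1 0.02, Dnajb1 0.05, Dnajb9 0.09 and Dnaja3 0.00. Under array weights they were Hspa1b 0.11, Dnajb9 0.11, Dnajc24 0.19, Hspb11 0.18, Dnaja4 0.12 and Dnajc15 0.30. Hspa8 was −0.04 as the mean of its probe sets, −0.12 and −0.06 on its dimmer probe sets and −0.05 after centring. On leaving out 1 array, turned values lay in the ranges −1.25 to 0.36 (Hspa1a), −1.32 to 0.30 (Hspa1b), −0.03 to 0.06 (Hspa8), −0.28 to 0.24 (Dnajb1), −0.54 to 0.48 (Dnajb9), −0.34 to 0.23 (Dnajc24), −0.32 to 0.10 (Hspb11), −0.14 to 0.01 (Hspb9), −0.10 to 0.06 (Dnaja4) and −0.48 to 0.28 (Dnajc15). The causes were not tested. The data hold no signal over background for single arrays, so dim genes have no lower bound.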

Other observations

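Probe sets that carry several gene names were left out of the report and hold further values for these families. The probe set shared by Hspa1a and Hspa1b gave 7.81, 6.40 and 9.11 (controls, by replicate) against 8.22, 6.58 and 7.10 (mutants), again with replicate 2 lowest in each group. A probe set shared by Hspa8 and the small nucleolar RNA gene Snord14e, which lies in an intron of Hspa8, was at 11.01, 10.14 and 11.27 in controls and 11.23, 10.35 and 10.85 in mutants. It ordered the control arrays as Hspa1a and the brightest single-symbol Hspa8 probe set did, and the latter ranged from 12.40 to 12.59 over all arrays.

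Of the genes without a probe set of their own, Dnaja1 (shared with Mir207) was at 8.07, 7.91 and 8.17 against 7.98, 7.59 and 8.00. Dnajc19, of the mitochondrial import motor (shared with its pseudogene), was at 8.91, 8.70 and 8.69 against 9.12, 7.23 and 8.62, again with mutant replicate 2 as the array apart. A second Dnajc7 probe set, shared with Nkiras2, was at 5.43, 5.49 and 5.45 in controls and 5.50, 5.61 and 5.71 in mutants, opposite in direction to the single-symbol one. The Dnajc14 probe set shared with Ormdl2 was at 6.57, 6.55 and 6.63 against 6.78, 5.42 and 6.86.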
